A study of Homo sapiens with 3 samples.

Results

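The members described here are the targeting guides of a pooled knockout screen in the established gastric cancer line NUGC3, of human origin, compared between cells kept for 14 days in 10 nM RTX and cells kept for 14 days in the solvent DMSO. Every guide against a gene or microRNA gene that had at least 10 normalised reads at day 0 was taken, which gave 61547 of the 61844 targeting guides in the table and of 62916 guides in all. Both groups came from the same cell line carrying a GeCKO library, were cultured to the same day and differed, as far as the labels say, only in the agent. A culture labelled DMSO day 0 was used only for the filter and to show where a guide started. Its title gives day 0, but the treatment note in the labels says that this group received DMSO for 14 days. It is taken here by its title, and every ratio over day 0 below rests on that. Each of the 3 conditions was 1 library, so no difference has a replicate check, and the guides of a gene share their 2 libraries and are not replicates of the drug. RTX is an abbreviation the labels leave unexplained; antifolate drugs are mentioned in the title of the series. The cell type cannot be checked against marker genes, because the libraries count guides in genomic DNA and hold no expression values.

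In such a screen each cell carries a guide RNA that directs the nuclease Cas9 to 1 gene, and the reads of a guide stand for the cells that still carry it. A guide becomes more frequent in a drug than in solvent when its cells grew better, or were lost less, under the drug. Antifolates enter cells through the reduced folate carrier, are retained by addition of glutamates, and block enzymes of folate and thymidylate metabolism, so the carrier and the glutamate-adding enzyme are known resistance genes for this drug class.

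Values are log2 ratios of RTX over DMSO per guide, from the deposited normalised values with a pseudocount of 5 added to both sides, which pulls the ratios of rare guides toward 0. A gene is given by the median of its guides. A gene was called when it had at least 3 measured guides and every guide was at least 2-fold higher, or every guide at least 2-fold lower, a rule of size and not a test. The DMSO library held 18805737 reads with a median of 251 per guide, and the RTX library 17344507 reads with a median of 232. The 991 measured non-targeting guides, which have no site in the genome, had an SD of 0.64 around a median of -0.10, while the median of the targeting guides was 0.00149. The spread depended on abundance. Among non-targeting guides the SD was 1.28 for those with 10 to 50 normalised reads at day 0 and 0.38 for those with 400 or more, and for targeting guides it was 1.29 and 0.48. The reads are therefore given beside the ratios.

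More knockouts were higher than lower in RTX. Of the 61547 targeting guides, 4893 were at least 2-fold higher in RTX (7.95%) and 3334 were at least 2-fold lower (5.42%). For the non-targeting guides these shares were 4.24% (exact 95% interval 3.07 to 5.69) and 6.05% (4.65 to 7.72), so the targeting share was above the interval of the non-targeting guides on the high side and within it on the low side. Among the targeting guides the imbalance grew with the size of the change. At a log2 ratio of 2 there were 813 higher against 375 lower guides, at 3 there were 167 against 48, and at 4 there were 46 against 4. The non-targeting guides had 8 against 5 at 2 and 1 against 1 at 3. At 2 their shares were 0.807% higher (0.349 to 1.58) and 0.505% lower (0.164 to 1.17). These intervals hold the targeting shares of 1.32% and 0.609%, so at this size the non-targeting guides do not set the targeting guides apart. Of the 991 non-targeting guides 0 were at 4 or higher and 1 at -4 or lower, too few guides to set against these shares. Of the targeting guides past 2-fold, 59.5% were higher, and 69.7% when ratios were centred on the non-targeting guides, which raised the median of all genes by 0.10, so medians within that distance of 0 have no settled direction. The intervals here treat guides as independent units within 1 pair of libraries. Intervals on folds below cover the counting error of reads only, and reads made by PCR are not independent molecules.

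At the gene level, 74 of 19523 genes with at least 3 guides were called enriched (0.379%) and 2 were called depleted (0.0102%). At these shares most lists of the sizes used below would hold no called gene, so a count of 0 says little about a list. The enriched genes were led by the folate carrier SLC19A1 and by FPGS, followed by subunits of Elongator and other enzymes that modify transfer RNA, RNA polymerases I and III, factors that build the ribosome, the cohesin regulator PDS5A, the ubiquitin ligase scaffold CUL2 and MYC. By textbook roles assigned after the calls were seen, 10 of the 74 act in ribosome assembly, 6 belong to RNA polymerase I or III or their factors, 5 to transfer RNA modification and 5 to mitochondrial gene expression, protein quality control and respiration. Another 3 each are cytosolic ribosomal proteins and aminoacyl-tRNA synthetases, the others with a role fell into smaller groups of 2 genes each, and 34 of the 74 were given no role. These roles were not counted among the other genes. The counts therefore have no share over all genes to be set against and do not show that a role is over-represented. The call asks all guides to agree, which few genes met. Of the 18094 genes with exactly 3 guides, 3182 had 1 guide at least 2-fold higher, 434 had 2 and 74 had all 3, against 2602, 151 and 2 on the low side. The genes just inside the rule were CDK2, whose lowest guide was at 1.001, URB1 and MKI67IP (both 1.01), and those just outside were JAK1 (0.996), MAK16 and BTN3A3 (both 0.99).

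Guides against SLC19A1, the reduced folate carrier, had the highest lowest-guide ratio of all genes, 4.95. The 3 SLC19A1 guides started from 35, 199 and 357 reads, with 87, 284 and 414 reads in DMSO, and 2578, 10090 and 43111 reads in RTX. The guide with the most RTX reads was 115-fold higher than in DMSO (counting interval 104 to 127), and that with 284 reads in DMSO was 39.1-fold higher (34.8 to 44.2). All 3 guides were higher in RTX, with log2 ratios from 4.95 to 6.82, and 1 guide started from only 35 reads. The intervals cover counting error only and so cannot show whether the guides differed in effect. Together they took 0.00417% of the DMSO reads and 0.322% of the RTX reads. FPGS, the synthetase that lengthens the glutamate tail of folates and related drugs, came next by size among the called genes. Its guides had 264, 216 and 139 reads when the culture began, 306, 165 and 48 after DMSO and 1491, 1696 and 8547 after RTX, with log2 ratios of 2.40, 3.46 and 7.47. The 3 FPGS guides agreed in direction but their ratios spread over more than 5 log2 units. Whether the effect itself differed by guide was not tested.

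The other genes of antifolate entry and retention did not share this pattern. GGH, the hydrolase that removes the added glutamates, had a median of 0.29 with guides from -0.67 to 0.40. The proton-coupled folate transporter SLC46A1 had a median of -0.52, with guides at -2.10, -0.52 and 0.34. The folate receptors FOLR1, FOLR2 and FOLR3 had medians of -0.93, -0.35 and 0.01, and in each the guides pointed both ways. Of the 7 genes in this list 2 were called, against 0.379% of all genes, and the list median was 0.01 because the other 5 lay between -0.93 and 0.29. The 9 exporters that can carry antifolates out of cells had no called gene. Their medians ran from -0.74 for ABCC5, whose 3 guides were all below 0 (-1.17 to -0.48), to 0.06 for ABCC11, and 3 of the 9 were above 0. ABCC1, the multidrug resistance protein, stood at -0.44 with a tight range of -0.45 to -0.38.

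The folate enzymes showed no common direction, with 12 of 22 above 0, and the median of these genes with 3 guides was 0.05. MTHFS, which recycles a storage form of folate, rested on 1 measured guide at 1.72. MTR, the methionine synthase, stood at -0.75 (-1.87 to 0.22) and its reductase MTRR at -0.49 (-0.85 to -0.07). ALDH1L1, which oxidises formyl-folate, had the lowest median at -1.22, with guides at -1.41, -1.22 and -0.13. SHMT2, the mitochondrial serine hydroxymethyltransferase, stood at 0.41.

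Thymidylate and nucleotide genes showed little agreement between guides. No gene of this list of 25 with 3 guides was called, where 0.379% of all genes were, and its median was -0.06. TYMS, the thymidylate synthase, had a median of -0.61 with guides from -0.89 to 0.30. The salvage kinase TK1 stood at -0.29 and spread from -1.44 to 0.90. DUT, which removes dUTP, stood at 0.77 but its guides ran from -1.61 to 1.97. The 3 guides were on 1 side for the nucleoside transporters SLC29A1 (-0.61 to -0.53), SLC29A4 (-0.62 to -0.45) and SLC29A3 (-1.72 to -0.92), all lower in RTX, and the fourth of the family, SLC29A2, had guides from -0.71 to 2.08. RRM1, the large subunit of ribonucleotide reductase, had the highest median of the list at 1.28, with 1 guide at -0.43. In purine synthesis, 4 of 15 genes had a median of at least 1 (26.7%, against 2.67% of all genes tested), namely GMPS, IMPDH2, GART and PAICS. GMPS, which makes GMP, stood at 2.32, and its guides had 608, 29 and 6 reads in DMSO and 493, 150 and 60 in RTX, so that the first guide did not share the gain. Only GART was called, with 1.27, 1.27 and 2.76, and it is a chromosome 21 gene, a group with a shift of its own (below).

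Elongator had the highest median of the 29 lists, 2.88. It adds a side chain to the wobble uridine of certain transfer RNAs, and ELP3 is its catalytic subunit. The ELP3 guides had 495, 283 and 259 reads when the culture began, 220, 82 and 125 after DMSO and 1269, 681 and 1024 after RTX, with log2 ratios of 2.64, 3.11 and 3.12. All 3 were thus below their day 0 count in DMSO and above it in RTX. ELP6 had 72, 44 and 96 reads in DMSO and 427, 324 and 1581 in RTX (2.62, 2.88 and 4.11). ELP2 had guides at 0.14, 3.08 and 4.45, and ELP5 at 0.25, 1.09 and 5.09, the last of which had 0 reads in DMSO and 157 in RTX and so was at least 57.7-fold higher against a floor of 3 reads. ELP4 had only 2 measured guides, at -0.07 and 1.99. Of the 17 guides against the 6 subunits, 14 were at least 2-fold higher and 0 at least 2-fold lower, where all targeting guides gave 7.95% and 5.42%, and the 5 subunits with 3 guides all had a median of at least 1.

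Genes that act on the same wobble uridine lay partly on the high side. MOCS3, which activates sulfur for its thiolation, was called, with 221, 41 and 144 reads in DMSO and 1083, 278 and 1063 in RTX (2.41, 2.75 and 2.98). CTU2, a subunit of the thiolase, had guides at 0.62, 1.93 and 2.26, and its partner CTU1 at 0.72, 0.95 and 2.46. KTI12, an Elongator-associated factor, had guides at 0.72, 2.43 and 3.01. The sulfur carrier URM1 stood apart from its pathway at a median of -0.19 (-1.42 to 0.23), as did the methyltransferase ALKBH8 at 0.24 (0.03 to 0.26). Over the 10 genes of this list, 12 of 30 guides were at least 2-fold higher (40.0%, against 7.95% of all targeting guides) and the median was 0.97. In the list of transfer RNA methylation, which concerns other positions, the median was 0.09 and the only called gene was WDR4, a chromosome 21 gene with the narrow range of 1.76 to 2.02, while METTL1, the catalytic partner of WDR4, stood at 0.09 (0.01 to 1.67).

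RNA polymerase I, which transcribes ribosomal RNA, had 4 of 14 genes called, where 0.379% of all genes were. POLR1E had 608, 132 and 362 reads when the culture began, 206, 35 and 108 after DMSO and 920, 274 and 1174 after RTX, with ratios of 2.27, 2.93 and 3.52. ZNRD1, another subunit, had ratios of 1.77, 2.81 and 3.08, the subunit POLR1B 1.02, 1.49 and 2.44, and the promoter factor TAF1B 1.56, 1.63 and 2.60. The catalytic subunit POLR1A had 2 guides at 2.36 and 2.50 and 1 at 0.10. In the list as a whole 21 of 42 guides were at least 2-fold higher, against 7.95% of all targeting guides, and the median was 0.86. Members did not all follow, as CD3EAP stood at -0.66 (-1.05 to 2.21) and the initiation factor RRN3 at -0.43 (-2.09 to 1.26). RNA polymerase III, which makes transfer RNA and 5S ribosomal RNA, had a median of 0.78 over 10 genes, and POLR3K was called (1.08, 2.74 and 3.11). RNA polymerase II, which makes messenger RNA, had 0 of 11 called and a median of 0.51, with POLR2E highest at 1.59.

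Ribosome assembly genes were also often high. The small-subunit processome, the particle that folds and cuts the precursor of 18S ribosomal RNA, had 5 of 42 genes called (UTP15, UTP18, DCAF13, FCF1 and NOC4L), against 0.379% of all genes, 14 with a median of at least 1, against 2.67%, and 38 above 0. FCF1, a nuclease-like factor, had 141, 30 and 153 reads in DMSO and 483, 133 and 704 in RTX (1.88, 2.11 and 2.30). UTP18 had 113, 68 and 1 reads in DMSO and 405, 280 and 28 in RTX, so 1 of its guides rested on 1 read in DMSO, but the others stood at 1.93 and 2.10. UTP23 had the highest median of the list, 2.65, with 1 guide at 0.83, and MPHOSPH10 the lowest, -0.37. Over the list 50 of 128 guides were at least 2-fold higher (39.1%, against 7.95% of all targeting guides) and 2 at least 2-fold lower. The called genes outside the list included large-subunit assembly factors NIP7 (1.32, 2.27 and 3.21), RSL24D1 (1.04 to 2.69), PES1 (1.09 to 1.28) and MKI67IP (1.01 to 3.58), and the RNase P and MRP proteins POP5 (1.26 to 2.92) and POP4 (1.10 to 1.64).

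The proteins of the finished ribosome showed a broad but smaller shift in RTX over DMSO. Against day 0 the list median was -0.74 in DMSO and -0.05 in RTX. The processome had -0.57 and 0.17, translation initiation -0.71 and 0.01, RNA polymerase I -0.54 and 0.23, and RNA polymerase III -0.87 and -0.08. By these medians these lists were below day 0 in DMSO and nearer to it in RTX, whereas Elongator was above it in RTX (-1.31 and 1.16). Not every list that was low in DMSO moved this way. DNA replication had -0.56 in DMSO and -0.44 in RTX, and the ATR-CHK1 checkpoint -0.57 and -0.60. RNA polymerase II (-0.93 and -0.42) and the proteasome (-0.72 and -0.24) were nearer to day 0 in RTX but still below it. Of 80 cytosolic ribosomal protein genes with 3 guides, 70 were above 0, 20 had a median of at least 1 (25%, against 2.67% of all genes), and the list median was 0.60. Called were RPL3, RPL13A and RPL23, of which RPL23 had 95, 80 and 41 reads in DMSO and 196, 200 and 110 in RTX. RPL32 had the highest median (guides from 0.22 to 2.20) and RPS2 the lowest (-0.69). These genes have many near-identical processed copies, so their guides can be uncertain. Translation initiation had 9 of 32 genes with a median of at least 1 (28.1%, against 2.67% of all genes) and none called. Its median was 0.58, with EIF2B2 on top (2.44, guides 0.88 to 2.45) and EIF3J at the bottom (-1.16). The proteasome stood at 0.39 with 0 of 30 called and DNA replication at 0.23 with 0 of 43, where 0.379% of all genes were called. In DNA replication GINS4 was highest at 2.46, with guides at -0.13, 2.46 and 2.70. The ATR-CHK1 checkpoint stood at 0.04 with 0 of 13 called, where the clamp protein RAD9A was highest at 1.56 and the kinase WEE1 lowest at -0.85.

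MYC, the growth-promoting transcription factor named in the series title, was called enriched. Its 3 guides had 246, 117 and 219 reads when the culture began, 268, 36 and 90 after DMSO and 575, 179 and 511 after RTX, with log2 ratios of 1.23, 2.30 and 2.58. In raw reads 2 of the 3 guides were below day 0 in DMSO, and all 3 were above it in RTX. The day 0 library held fewer reads (16547572) than the DMSO library (18805737), so the small rise from 246 to 268 reads is no gain by itself. In normalised values the median of the MYC guides over day 0 was -1.39 in DMSO and 1.20 in RTX. No other gene of the 12 in the MYC network was called, where 0.379% of all genes were. The obligate partner MAX had 2 guides near 0 (0.11 and 0.22) and 1 at 3.24, which went from 72 reads in DMSO to 657 in RTX. MGA, which competes for MAX, had guides at -3.85, -0.44 and 1.41. The antagonists MNT (-0.24), MXD1 (0.00), MXD4 (0.09) and MXI1 (0.02) lay near 0, MXD3 was lowest at -0.59, and the network's median was -0.01.

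Cohesin, the ring that holds sister chromatids and chromatin loops, had 1 called gene of 18 (5.56%, against 0.379% of all genes). PDS5A, a regulator bound to the ring, had 77, 107 and 183 reads when the culture began, 19, 13 and 4 after DMSO and 105, 116 and 177 after RTX (2.32, 2.87 and 4.44). The RTX counts were close to the day 0 counts and the low values were those of DMSO. Its paralog PDS5B had a median of -0.28 (-0.86 to 0.30). STAG2, a ring subunit, had guides at 0.86, 0.95 and 1.30 from 125, 176 and 34 reads in DMSO and 210, 314 and 83 in RTX, and its paralog STAG1 stood at -0.25 (-0.44 to 0.11). The core subunits SMC1A (0.19, guides -0.17 to 0.49) and RAD21 (0.68, -0.68 to 0.88) and the loader NIPBL (0.04, -0.08 to 0.25) had guides on both sides of 0. SMC3 was lowest at -0.97 with guides at -1.14, -0.97 and 1.06. The list median was -0.17.

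Mediator, which links transcription factors to RNA polymerase II, had no called gene among 33, where 0.379% of all genes were called. Of its members 6 had a median of at least 1 (18.2%, against 2.67% of all genes) and 24 were above 0. MED22 was highest at 1.60, with guides from -0.24 to 2.08. More even were MED23 (0.90, with 1.48 as median and 1.56 as highest guide), MED30 (0.73 to 1.23) and MED24 (0.63 to 1.23), each with all 3 guides above 0. MED1 and MED4 had medians of 1.03 and 1.01. In the kinase module CCNC, its cyclin, stood at 0.95 (0.40 to 1.26), CDK8 at 0.44 (0.37 to 1.15) and MED12 at 0.47 (0.07 to 0.66), while MED13 (-0.01) and MED13L (-0.18) did not share this. The lowest member was MED25 at -0.59. Over Mediator, 22 of 99 guides were at least 2-fold higher (22.2%, against 7.95% of all targeting guides). Only 1 was at least 2-fold lower (1.01%, against 5.42%), and the median was 0.23.

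Several single complexes outside these groups had a called or high member. CUL2, the scaffold of the ligase that carries the von Hippel-Lindau protein, had 262, 34 and 50 reads in DMSO and 952, 171 and 317 in RTX (1.98, 2.30 and 2.68). Its partners VHL (1.69, guides 0.33 to 1.81) and TCEB1 (2.20, guides -0.19 to 3.32) had medians of at least 1, whereas the ring protein RBX1 stood at -0.49 and the ligase's substrate HIF1A at -0.81 (-1.43 to 0.54). AP2S1, the small subunit of the clathrin adaptor AP-2, had 2 guides at 4.10 and 4.54, from 157 and 63 reads in DMSO to 2527 and 1436 in RTX, and the other at 0.12. The medium subunit AP2M1 stood at 0.65 with all 3 guides above 0 (0.41 to 2.36), and AP2A1, AP2A2 and AP2B1 had medians of -0.03, -0.32 and -0.54. In iron-sulfur assembly the cytosolic targeting factor FAM96B was called (1.94, 2.01 and 2.75), FDX1L had the same rounded median with guides from 0.35 to 2.18, and the chaperone HSPA9 was lowest at -1.27. In the pentose phosphate pathway PGD had 19 and 33 reads in DMSO and 144 and 315 in RTX for its 2 guides (2.76 and 3.20), which left it outside the rule, and TKT had guides at 0.98, 2.08 and 2.15.

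Other called genes, named after their values were seen, had the following reads. NAA60, an N-terminal acetyltransferase, had 264, 127 and 429 reads in DMSO and 492, 656 and 3803 in RTX. ATXN2L, an RNA-binding protein, had 350, 515 and 210 against 707, 1720 and 2308. CDK2, a cell-cycle kinase, had 75, 225 and 496 against 141, 977 and 2503, and FNTB, the farnesyltransferase subunit, 241, 365 and 333 against 581, 1067 and 1199. These 4 genes had more reads in RTX than at day 0 for every guide, with medians of RTX over day 0 of 1.62, 1.90, 1.79 and 1.37. JAK1, the cytokine receptor kinase just outside the rule, had 447, 229 and 637 reads in DMSO and 814, 443 and 1407 in RTX.

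The called genes were grouped by where they stood against day 0, although the 3 ratios share libraries and are not independent. Because the call required higher values in RTX than in DMSO, a low DMSO value, a high RTX value or both follows from it. The limits of 1 cut a continuous range. GART (-1.66 in DMSO and 0.996 in RTX) and POLR1E (-1.85 and 1.02) fell on different sides of a limit. Of the 74 genes, 40 had a DMSO over day 0 median of -1 or lower but stayed under 1 in RTX over day 0, so their guides were lost in solvent and nearer to the starting level in RTX. Another 18 had the reverse, a median of at least 1 for RTX over day 0 without such a loss in DMSO, 7 met both limits and 9 neither. SLC19A1, FPGS, ATXN2L, NAA60 and CDK2 belonged to the 18. ELP3, ELP6, MOCS3, POLR1E, ZNRD1, CUL2 and MYC made up the 7, below day 0 in DMSO and above it in RTX. PDS5A, UTP18, FAM96B, LONP1 and POP5 belonged to the 40. LONP1, the mitochondrial protease, was one of these, with 537, 274 and 226 reads when the culture began, 178, 23 and 18 after DMSO and 426, 145 and 154 after RTX. POLRMT, the mitochondrial RNA polymerase, was the only called gene at -1 or lower in RTX over day 0 (-1.01), so it was lost in both cultures and more so in DMSO. Over all 74 genes the median against day 0 was -1.32 in DMSO and 0.52 in RTX, a gap that the call builds in. For all genes with at least 3 guides these medians were -8.1e-05 and -0.0042.

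Genes of chromosome 21, which also carries SLC19A1, were higher in RTX together. The 213 chromosome 21 genes with 3 guides had a median log2 ratio of 0.73, while the medians of the other chromosomes with at least 100 genes lay between -0.13 (chromosome 18) and 0.07 (chromosome 1). Of 664 chromosome 21 guides 36.3% were at least 2-fold higher and 0.904% at least 2-fold lower, against 7.64% and 5.47% of the guides of all other genes. The shift was also seen for genes of hair proteins. The 47 keratin-associated protein genes of chromosome 21 had a median of 0.73 with 41 above 0, and the 37 such genes on other chromosomes a median of 0.03 with 20 above 0. These families are near-identical copies, so guides may cut several of them.

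The shift ran along the whole chromosome. In gene order from the short-arm side, with SLC19A1 kept in, 8 successive groups of 26 or 27 genes had medians of 0.72, 0.82, 0.81, 0.71, 0.66, 0.76, 0.83 and 0.66. The 200 genes before SLC19A1 had a median of 0.74 and the 12 beyond it 0.66, of which 11 were above 0. SLC19A1 itself stood far above its neighbours, with POFUT2 at 1.18, COL18A1 at 0.71, PCBP3 at 0.75 and COL6A2 at 1.41. In DMSO over day 0 the chromosome 21 genes other than SLC19A1 had a median of 0.03, and in RTX over day 0 of 0.69. Chromosome 21 held 17 of the 74 called genes, among them PDXK (1.36, 1.58 and 3.13), ADARB1 (1.07, 1.84 and 2.03), TCP10L, UMODL1, POFUT2, SOD1, SON and 3 keratin-associated genes, so that 57 of 74 calls lay elsewhere. For SLC19A1, WDR4, GART, MRPL39, DONSON and the other genes of this chromosome, a change owed to the gene and the shift of the chromosome cannot be told apart from these values, except that SLC19A1 exceeds the chromosome median by more than 4 log2 units.

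On the low side no list held a called gene. The only called genes were ANKRD53, an ankyrin repeat protein, and SUPT5H, a subunit of the factor that controls pausing and elongation of RNA polymerase II. ANKRD53 had 78, 205 and 122 reads in DMSO and 9, 38 and 44 in RTX (-2.46, -2.16 and -1.24). SUPT5H had 217, 403 and 288 reads in DMSO and 47, 125 and 113 in RTX (-1.96, -1.51 and -1.18), and at day 0 119, 229 and 86 reads, so all 3 guides had more reads than at day 0 in DMSO, while in RTX 2 of them had fewer and 1 had more. The median of RTX over day 0 for SUPT5H was -0.86. The next genes by the highest guide were LY6G6C (highest guide -0.96), BCAS4 (-0.93), SLC29A3 (-0.92), SNRK and ITGAV (both -0.91) and ATXN7L3 (-0.90). Of these, ATXN7L3, a subunit of the SAGA deubiquitinase module, had a median of -1.39, and the integrin ITGAV had 1 guide at -2.80. In all, 156 genes had a median of -1 or lower (0.799%), against 522 at 1 or higher (2.67%), and STK4, a Hippo pathway kinase, was the lowest of the growth suppressors at -1.30.

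Several of the most extreme single guides lacked support from other guides of their gene. The highest ratio of any guide, 7.68, belonged to NAALAD2, with 28 initial reads, 0 after DMSO and 966 after RTX, at least 355-fold higher against a floor of 3 reads, but the other guides of NAALAD2 were at 0.16 and 0.36. HELQ, a DNA helicase, had 1 guide with 3 reads in DMSO and 620 in RTX, a ratio of 228 with a counting interval of 77.6 to 1107, and other guides at -0.31 and 0.56. CYP7B1 and CUL5 likewise had 1 guide at 6.03 and 5.50 and the rest at 0.94 or lower. Of the 10 highest guides, those of FPGS, SLC19A1 (2 guides), DHX33, PSMG1 and ELP5 belonged to genes whose median was at least 1. On the low side MMRN1 and ZNF829 had guides with 4316 and 2683 reads in DMSO, against 198 and 288 at day 0 and 227 and 138 in RTX, so that the DMSO counts stood far from both others. The other guides of both genes lay between -0.27 and 0.70.

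MicroRNA genes and olfactory receptors, the odour sensors of the nose, were read the same way. Of 1573 microRNA genes with at least 3 measured guides 0 were called in either direction, a count by the size rule and not a test. Of all genes 0.379% were called enriched and 0.0102% depleted. The closest were hsa-mir-3180-4, whose lowest guide was at 0.90, and hsa-mir-4697, whose highest was at -0.66. A median of at least 1 was found for 15 microRNA genes (0.954%, against 2.67% of all genes). By single guides, 8.33% of microRNA guides were at least 2-fold higher and 6.04% at least 2-fold lower. These shares were near those of all targeting guides (7.95% and 5.42%). Most microRNA genes had 4 guides, which makes the rule harder to meet. Of 354 olfactory receptor genes 1 was called (OR52E2, 1.08 to 1.40), which is 0.282% against 0.379% of all genes, and their median was -0.07. The OR52E2 guides had 16, 187 and 58 reads in DMSO and 36, 424 and 147 in RTX.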

How the data were processed

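Genomic DNA of 3 NUGC3 cultures was amplified and sequenced, 1 library per condition, per the labels' protocols. The authors deposited 1 table per pair of libraries, made with MAGeCK 0.5.7 and naming hg19, per the submitters' processing notes; for the read matching, the method was not given in the sources used here. Columns for control and treatment values are given, per the file headers. These deposited values are a signal of abundance, read counts divided by 1 size factor per library. Dividing by the value of 1 read gave whole reads for at least 99.9984% of the values used (tolerance 0.1). The authors' deposited table also gives an FDR (q-value) per guide.

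Log2 ratios used a pseudocount of 5 and guides with at least 10 normalised reads at day 0. Genes needed 3 guides, and 23 date-like names (72 guides) were left out. There is no test over samples, so called means past the fold. Intervals are exact 95% Clopper-Pearson or conditional Poisson intervals, and folds against 0 reads use a floor of 3 reads in the library. Named were the 20 highest and 15 lowest genes by their least extreme guide, all members of 8 lists, the called, highest and lowest members of the other lists, and the 10 highest and lowest guides. Other genes were chosen after their values were seen. A few genes that these rules name are not reported here. The members, the 29 lists and the rules were chosen with earlier results of these data known. The call and the count test were tested on simulated data. That count test, edgeR 4.0.16's exact test on recovered reads (its dispersion estimated on non-targeting guides), compares the 2 libraries and not the conditions. RefSeq (GRCh38.p14) gave chromosomes and gene order and placed 18549 of 19523 genes; no coordinates are given because the builds differ. Guide sequences were not used here. Python 3.11.15, pandas 2.3.3 and scipy 1.17.1 were used.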

Additional observations from a re-analysis of the deposited data

How the results depend on the processing

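No paired analysis was possible because each condition is 1 library, and for the same reason no replicate could be left out. The counts of called genes stayed within 1.5 times of 74 under pseudocounts of 1 and 20, without the day 0 filter, with a day 0 filter of 50, and when centred on the non-targeting guides or scaled to equal totals (50 to 101 enriched genes, 2 depleted in each), and 41 of the 74 enriched genes were called under all 6. SLC19A1 is not among the 41, because a day 0 filter of 50 leaves it 2 guides. Centring on the non-targeting guides raised the median of all genes by 0.10 and the share of higher among the guides past 2-fold from 59.5% to 69.7%. With the median of guides at least 2-fold and all guides of 1 sign, 334 genes were enriched and 82 depleted; with every guide at least 3-fold, 15 and 0 (0 being a count by size, not a test); with at least 2 guides, 85 and 6. By the FDR in the authors' deposited table, under 0.05, the targeting guides gave 8640 higher and 2641 lower ones, where 83 and 53 non-targeting guides were also called. The edgeR exact test on recovered reads called 575 targeting guides higher and 242 lower, and 5 and 3 of the non-targeting guides. Without chromosome 21, an alternative chosen after seeing the data, 57 genes were enriched and 2 depleted. Of 250 named genes, the sign of the gene value turned for 18 with the mean of guides in place of the median and for 8 with the day 0 filter of 50, and in each case 6 of these had a reported median at least 0.2 from 0. The stability of MTHFS, which has 1 guide and so no spread of its own, was judged against the SD of the non-targeting guides. Depth limits guides with few reads, as the spread by abundance shows.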
